A study of Homo sapiens with 24 samples.

Results

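Transcript levels of B lineage transcription factors were examined in L1236, a cell line derived from a Hodgkin lymphoma of B cell origin, after siRNA knockdown (KD) of NF-κB subunits. The listed factors were PAX5, EBF1, TCF3, FOXP1, LEF1, POU2F2, POU2AF1, SPIB, SPI1 and IKZF1, and a factor was taken as measured where a transcript cluster of the array (the probe group that stands for a transcript locus) carried its symbol alone. Of the 10 factors, 9 had such a cluster among 19460 clusters with 1 symbol. The cluster that holds EBF1 carries 2 symbols in the platform annotation, so no value is given for EBF1. All of the 9 measured factors lay above the low value limit of 6 (log2) on each of the 24 arrays. This does not by itself show expression, since the values carry no detection call. CD7 and NKG7, markers of T and NK cells, also lay above that limit on every array, and whether L1236 expresses them was not tested.

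In experiment 1, cells received siRNA against NFKB1 (1 µM, 3 days) and RELA (500 nM, 2 days), here called p50/RelA KD, or non-targeting siRNA, here called control 1. In experiment 2, cells received siRNA against NFKB2 (500 nM, 2 days) and RELB (1 µM, 3 days), here called p52/RelB KD, or non-targeting siRNA, here called control 2. RNA was taken 1 day after the siRNA period, while the cells were back in standard serum. An arm held 6 arrays, as 3 replicates each gave an array for siRNA sequence 1 and an array for sequence 2. All arms, controls included, were exposed to siRNA in delivery medium with low serum, and all arrays are of this 1 cell line. Expression values are on the log2 scale, and levels were compared between arms of an experiment and never between genes, because different probes differ in brightness.

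B cell identity is built in steps by these factors. The E protein TCF3 (which encodes E12 and E47) and EBF1 switch on early B lineage genes and PAX5, and PAX5 then activates B cell genes while silencing genes of other lineages. IKZF1 (Ikaros), SPI1 (PU.1) and FOXP1 act in early lymphoid and B cell development, LEF1 carries Wnt signals to DNA in B and T progenitors, and POU2F2 (Oct-2) with its coactivator POU2AF1 (OCA-B) and the PU.1 relative SPIB act in mature and germinal centre B cells. Hodgkin lymphoma cells descend from germinal centre B cells and are known for having lost much of the B cell programme while keeping PAX5.

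The siRNAs are shown because every comparison rests on them. They are given 5′ to 3′, in the order of the study's own siRNA list. There are 2 per target, and it was not stated which of them is labelled sequence 1 or 2.
NFKB1, first in the list: ccaaaguauaaagauauua
NFKB1, next in the list: ggcucauguuuacagcuuu
RELA, first in the list: cuuccaaguuccuauagaa
RELA, next in the list: ggauugaggagaaacguaa
NFKB2, first in the list: ucauugagcagauagucua
NFKB2, next in the list: cugucaagaucuguaacua
RELB, first in the list: guaggauucggaaaagauu
RELB, next in the list: uggagaucaucgacgagua

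The promoter windows of the factors were searched for the κB consensus, the DNA motif of NF-κB dimers, since NF-κB was the target of the knockdowns. RefSeq windows (GRCh38.p14) of 300 bases, with 250 before and 50 after an annotated gene start, were held for 8 of the 10 factors, in 15 windows. The consensus of 10 letters, GGGRNNYYCC, was searched on both strands (R is A or G, Y is C or T, N is any base). It stood in 2 of the 15 windows, and in 11.3% of all 35116 windows. The matches lay in 1 of 6 windows of FOXP1, a gene on the minus strand of chromosome 3, and in the window of SPIB, a gene on the plus strand of chromosome 19. They are shown on the gene's strand, 5′ to 3′, with the match in capitals and 10 bases on each side. For FOXP1 the consensus reads on the opposite strand, so the capitals are its reverse complement.
FOXP1, chr3:71064924-71064953, match starting 19 bases before the gene start: cccgcgagccGGAGCGCCCCtgcgcgcgtg
SPIB, chr19:50418731-50418760, match starting 197 bases before the gene start: ccagccccacGGGGATCCCCaaatccagac
The windows of PAX5, TCF3, LEF1, POU2F2, IKZF1 and EBF1 held no match to these letters. The match is a description of the letters and was not related to binding.

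The knockdowns were checked first. In p50/RelA KD, NFKB1 fell by 1.92 and RELA fell by 1.39 on the log2 scale (limma, adjusted p = 3.92e-06 for each), and NFKB2 fell by 0.19 (adjusted p = 0.0457). In p52/RelB KD, NFKB2 fell by 1.34 (adjusted p = 4.75e-09) and RELB fell by 0.29 (adjusted p = 0.00221). REL, a subunit that no siRNA was aimed at, fell by 0.57 in p52/RelB KD, to 67.5% of control (limma, adjusted p = 0.000308). NFKB1 rose by 0.15 there (limma, adjusted p = 0.0374). Effects of p52/RelB KD are therefore effects of arrays in which REL was also lower, and fell by more than the target RELB. These are transcript values. The study showed depletion of the targeted subunits as protein on Western blots. It saw no change of nuclear c-Rel, the product of REL, after depletion of p105/p50 and p100/p52. The array of p52/RelB KD with sequence 2 in replicate 3 stood apart, with a mean correlation of 0.9859 to the other arrays of its arm against 0.9931 to 0.9944 for the others and a narrower interquartile range of 3.163 against 3.327 to 3.423. On that array, clusters with a control level between 7 and 8.5 lay a median of 0.159 above the controls of the replicate and those with a level above 10 lay a median of 0.107 below them, while on the other 5 arrays these medians did not exceed 0.0234 in size.

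Of the 9 factors, 4 changed in p52/RelB KD and 0 was called in p50/RelA KD. PAX5, FOXP1 and LEF1 rose with p52/RelB KD and TCF3 fell, while IKZF1, POU2F2, POU2AF1, SPI1 and SPIB were not called. From these same arrays, the study had named FOXP1 and LEF1 among genes repressed by p52/RelB alone. It had named PAX5 among genes repressed by NF-κB in Hodgkin cells. A call needed a Benjamini-Hochberg adjusted p below 0.05 over all tested clusters in limma, together with a change of 10% or more (0.138, log2). Over all tested clusters, 1.07% were called in p50/RelA KD (157 of 14672) and 9.68% in p52/RelB KD (1559 of 16101). The rises were 3.93% of all clusters and 3 of the 9 factors in p52/RelB KD, and the falls were 5.75% of all clusters and 1 of the 9 factors. The corresponding shares of all clusters in p50/RelA KD were 0.245% and 0.825%. At an unadjusted p below 0.05 stood 2 of 9 factors (FOXP1 and SPI1) in p50/RelA KD, beside 10.5% of all clusters, and 4 of 9 in p52/RelB KD, beside 22.8%. The methods' t-test called 0 of 9 in p50/RelA KD as well. The median difference of the 9 factors was 0.05 in p52/RelB KD, beside 0.02 over all clusters, and -0.0070 in p50/RelA KD, beside 0.0012. In bulk RNA, fewer cells of a kind and less RNA per cell cannot be told apart.

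The called differences lay near the middle of the called sizes or below it. Among 633 clusters that rose, FOXP1 ranked 266, PAX5 396 and LEF1 405 by size, and among 926 that fell TCF3 ranked 526. The median size of a called difference was 0.24 (log2) over all clusters. All 4 calls remained when any single array was left out, the outlying array included. The calls did depend on the number of replicates, since without replicate 1 only FOXP1 was called (adjusted p = 0.0204), without replicate 2 none of the 4 was (adjusted p between 0.0986 and 0.129 in limma), and without replicate 3 all 4 were. When the 2 sequences of an arm were averaged within each replicate, so that 3 values stood against 3, the sizes stayed and limma's adjusted p lay between 0.0673 and 0.0865, with 0 called. The arrays of a replicate received different siRNAs and so came from cells treated separately. The sources used here do not say whether these parallel cultures were independent, so the p-values over 6 arrays measure the spread between arrays.

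**Figure D1:**
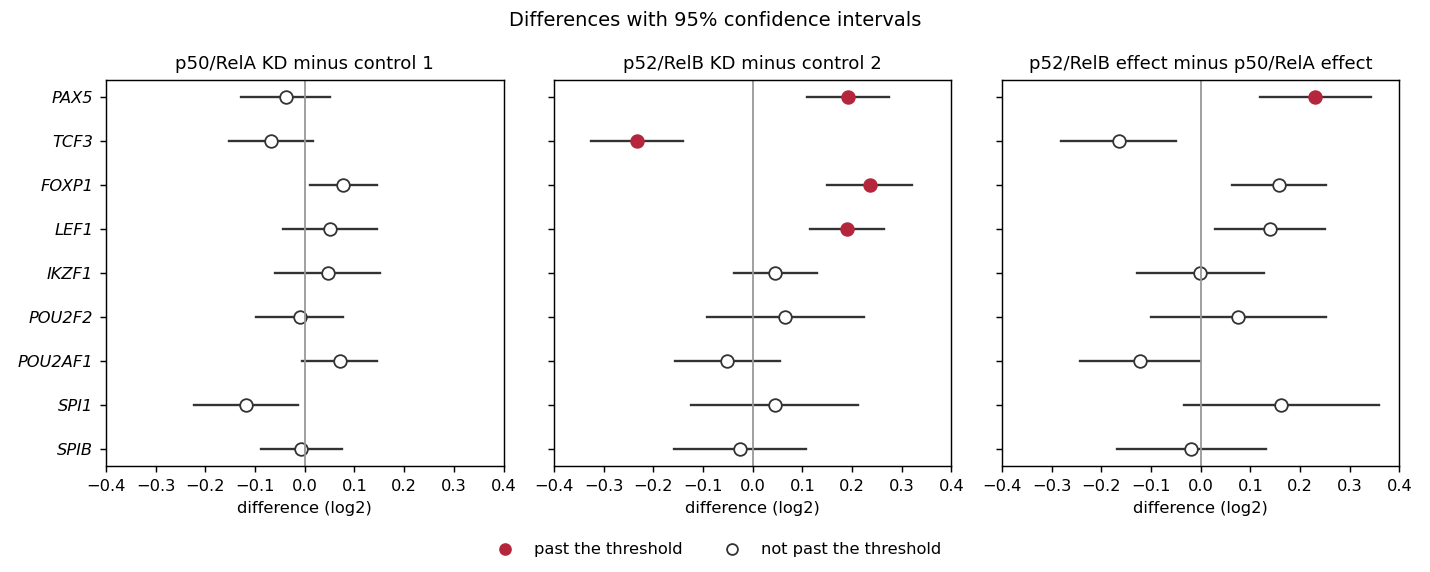
Knockdown minus control for the 9 measured factors in each experiment (left and middle) and the difference between the 2 effects (right), on the log2 scale, with 95% confidence intervals from limma over 6 arrays an arm. Filled points passed the threshold: none in p50/RelA KD, PAX5, TCF3, FOXP1 and LEF1 in p52/RelB KD, and PAX5 for the difference between effects.

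PAX5, the factor that commits and holds cells to the B lineage, was higher in p52/RelB KD. Its values in control 2 ran from 10.83 through a median of 10.96 to 11.03, and in p52/RelB KD from 10.97 through 11.16 to 11.21. The arms overlapped by 1 knockdown array, sequence 1 of replicate 3, which lay at 10.97, yet every knockdown array lay above both controls of its own replicate. PAX5 rose by 0.19 ± 0.04 (SE, n = 6 and 6), to 114% of control (limma, adjusted p = 0.00646). The rise was 0.21, 0.18 and 0.19 in replicates 1, 2 and 3. The values of p50/RelA KD ran from 10.67 to 10.93 and those of control 1 from 10.80 to 10.97, and the difference of -0.04 ± 0.04 was not called (limma, adjusted p = 0.857, 95% interval -0.13 to 0.05). PAX5 was the factor whose effects differed between the experiments, with a p52/RelB effect 0.23 ± 0.05 above the p50/RelA effect (limma, adjusted p = 0.0151).

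TCF3, the E protein that opens early B lineage genes, was the factor that fell. In control 2 it ran from 10.41 through a median of 10.59 to 10.70, and in p52/RelB KD from 10.24 through 10.36 to 10.38. The arms did not overlap, and the lowest control array belonged to replicate 3, whose controls averaged 10.45 against 10.67 and 10.59 in replicates 1 and 2. TCF3 fell by 0.23 ± 0.04 (SE, n = 6 and 6), to 85.1% of control (limma, adjusted p = 0.00414). By replicate the difference was -0.29, -0.30 and -0.11. With p50/RelA KD it differed by -0.07 ± 0.04 (limma, adjusted p = 0.612), with 4 of the 6 knockdown arrays below both controls of their replicate. The 2 effects differed by -0.16 ± 0.06, which did not pass (limma, adjusted p = 0.105).

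The inhibitors of E proteins were examined beside TCF3. ID1, ID2, ID3 and ID4 lack a DNA-binding region and hold E proteins off DNA as dimers, and MSC (ABF-1) is a repressor that dimerizes with them. Of these, 2 of 5 rose in p52/RelB KD and 0 fell, beside 3.93% and 5.75% of all clusters. Their median difference was 0.11, beside 0.02 over all clusters. ID1 rose by 0.37 ± 0.06 to 130% of control (limma, adjusted p = 0.00238), with knockdown arrays from 7.18 to 7.68 that overlapped the controls, whose mean was 7.06. ID3 rose by 0.22 ± 0.05 to 117% of control (limma, adjusted p = 0.0161). The control means of ID1 and ID3, 7.06 and 6.79, were low, below the median of every control 2 array (7.398 to 7.412). ID2, ID4 and MSC differed by 0.10, 0.11 and -0.09 and were not called (limma, adjusted p = 0.513, 0.261 and 0.293). Of the 4 tested in p50/RelA KD 0 was called, beside 1.07% of all clusters, and ID4 did not pass the filter there. The ID1 effects differed between the experiments (0.33 ± 0.07, limma, adjusted p = 0.0101), and the ID3 effects did not pass that test (0.13 ± 0.08, adjusted p = 0.435). Without replicate 1 neither ID1 nor ID3 was called, and without replicate 3 ID2 was called in place of ID3. Without the outlying array ID2 was called beside ID1 and ID3. The other E proteins, TCF4 and TCF12, differed by -0.15 and 0.03 in p52/RelB KD and were not called (limma, adjusted p = 0.105 and 0.581).

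FOXP1, a forkhead repressor and activator needed for B cell development, showed the largest rise of the 9 factors. In control 2 it ran from 9.50 through a median of 9.57 to 9.62, and in p52/RelB KD from 9.70 through 9.82 to 9.88. The arms did not overlap. FOXP1 rose by 0.24 ± 0.04 (SE, n = 6 and 6), to 118% of control (limma, adjusted p = 0.00239). By replicate the rise was 0.14, 0.28 and 0.29, so that replicate 1 showed the smallest difference. It ran from 9.58 to 9.69 in p50/RelA KD against 9.48 to 9.60 in control 1, with all 6 knockdown arrays above both controls of their replicate, as in 3.77% of all clusters on either side. That difference of 0.08 ± 0.03 was below the 10% floor and not called (limma, adjusted p = 0.369, unadjusted p = 0.0262). The 2 FOXP1 effects differed by 0.16 ± 0.05 and missed the threshold (limma, adjusted p = 0.0531).

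Of 16 tested paralogs of the 10 factors, 1 rose and 1 fell in p50/RelA KD and 1 rose and 2 fell in p52/RelB KD, with median differences of -0.0011 and 0.03. Over all clusters 0.245% rose and 0.825% fell in p50/RelA KD, and 3.93% rose and 5.75% fell in p52/RelB KD. FOXP2, a paralog of FOXP1 known from the nervous system, was called in both experiments. It rose by 0.25 ± 0.05 in p50/RelA KD (limma, adjusted p = 0.0296) and by 0.37 ± 0.06 in p52/RelB KD (limma, adjusted p = 0.00264), where the arrays ran from 8.22 to 8.73 and overlapped the controls, which ran from 8.07 to 8.35. The arms of experiment 1 overlapped as well. FOXP3, the regulatory T cell factor, and FOXP4 were not called in either. The FOXP2 call in p50/RelA KD was lost on leaving out any replicate, and that in p52/RelB KD on leaving out replicate 1 or 2.

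LEF1, the Wnt effector of lymphoid progenitors, rose by a like amount in every replicate of p52/RelB KD. In control 2 it ran from 10.34 through a median of 10.40 to 10.51, and in p52/RelB KD from 10.53 through 10.61 to 10.65. The arms did not overlap, and the lowest knockdown value, close to the highest control, was that of the outlying array. LEF1 rose by 0.19 ± 0.03 (SE, n = 6 and 6), to 114% of control (limma, adjusted p = 0.00381), with rises of 0.16, 0.20 and 0.21 by replicate. The values of p50/RelA KD ran from 10.72 to 10.84 and those of control 1 from 10.59 to 10.83, and the difference of 0.05 ± 0.04 was not called (limma, adjusted p = 0.799). Its family members TCF7L1 and TCF7L2 differed by 0.05 and -0.06 in p52/RelB KD and were not called (limma, adjusted p = 0.531 and 0.394).

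**Figure D2:**
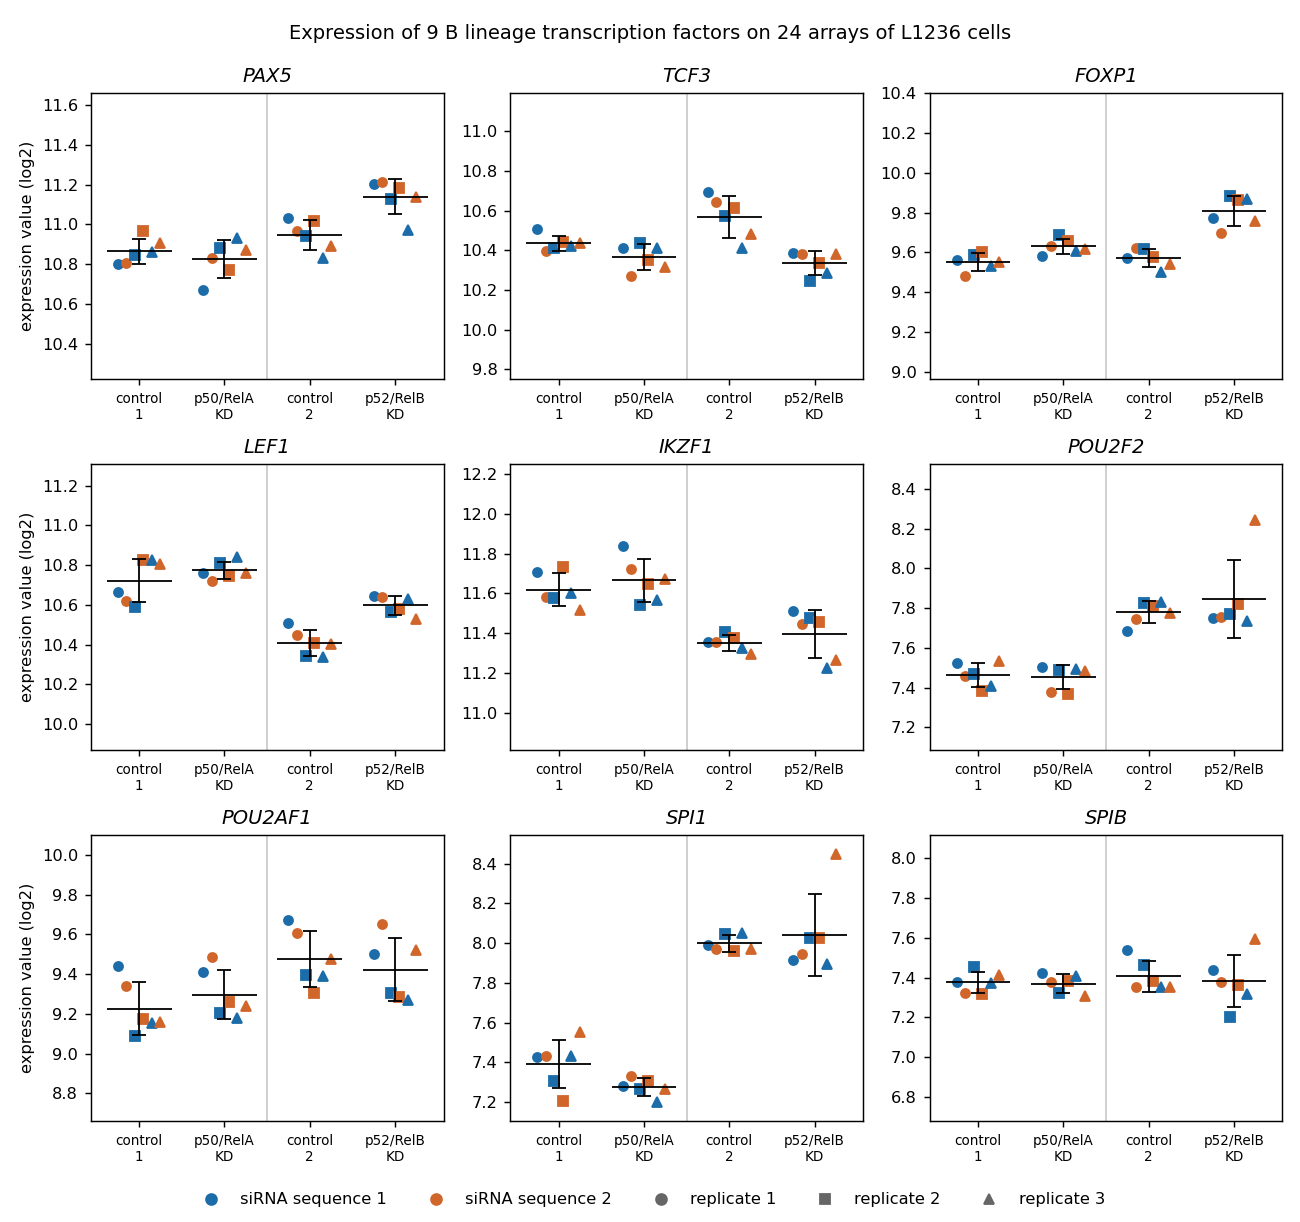
Log2 expression of each measured factor on all 24 arrays, by arm, with siRNA sequence as colour and replicate as symbol; black lines are the mean and SD of 6 arrays, and each panel spans the same number of log2 units. FOXP1 and LEF1 in p52/RelB KD lie above all control 2 arrays and TCF3 lies below them, whereas the single high points of POU2F2 (8.24) and SPI1 (8.45) come from 1 array.

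IKZF1, a zinc finger factor of early lymphoid cells, was not called in either experiment. It ran from 11.29 to 11.40 in control 2 and from 11.22 to 11.51 in p52/RelB KD. By replicate its differences were 0.12, 0.08 and -0.06, so that replicate 3 went the other way. The mean differences of 0.05 ± 0.04 in p52/RelB KD and 0.05 ± 0.05 in p50/RelA KD were not called (limma, adjusted p = 0.524 and 0.853). The related IKZF2 (Helios), known best from T cells, fell by 0.43 ± 0.07 to 74.1% of control in p52/RelB KD (limma, adjusted p = 0.00171), with all 6 arrays below the controls. It was not called in p50/RelA KD (0.05 ± 0.05, adjusted p = 0.802), and the effects differed between the experiments (-0.49 ± 0.08, limma, adjusted p = 0.0014). The IKZF2 call was lost without replicate 1. IKZF3, Aiolos of mature B cells, was not called, with -0.16 in p50/RelA KD (adjusted p = 0.123) and 0.03 in p52/RelB KD (limma, adjusted p = 0.614).

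The octamer factor POU2F2 and its coactivator POU2AF1 drive immunoglobulin genes, and neither was called. POU2F2 ran from 7.68 to 7.83 in control 2 and from 7.73 to 8.24 in p52/RelB KD, where the highest value was that of the outlying array and the next lay at 7.82. Its difference there was 0.07 ± 0.07 (limma, adjusted p = 0.631), and -0.01 ± 0.03 without that array. POU2AF1 ran from 9.30 to 9.67 in control 2 and from 9.27 to 9.65 in p52/RelB KD, a difference of -0.05 ± 0.05 (limma, adjusted p = 0.572). With p50/RelA KD, POU2F2 differed by -0.01 ± 0.04 and POU2AF1 by 0.07 ± 0.04 (limma, adjusted p = 0.972 and 0.528), and 5 of 6 knockdown arrays of POU2AF1 lay above both controls of their replicate.

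The paralog POU2F3, a factor known from tuft cells and skin, fell in both experiments. It fell by 0.51 ± 0.04 to 70.0% of control in p52/RelB KD (limma, adjusted p = 6.51e-06), with arrays from 10.45 to 10.78 against control arrays at 11.04 or above. With p50/RelA KD it fell by 0.21 ± 0.04 (limma, adjusted p = 0.012). The fall was larger in p52/RelB KD, by the test of the difference between effects (-0.30 ± 0.05, limma, adjusted p = 0.000465). The call in p52/RelB KD remained on leaving out any replicate, and that in p50/RelA KD was lost on leaving out any.

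The ETS factors SPI1 and SPIB, which bind the same DNA element in B cells and in myeloid or dendritic cells, were not called. SPI1 ran in p50/RelA KD from 7.20 to 7.33 against 7.21 to 7.55 in control 1, a difference of -0.12 ± 0.05 (limma, adjusted p = 0.387, unadjusted p = 0.0289). By replicate it was -0.13, 0.03 and -0.26, so that replicate 2 went the other way. With p52/RelB KD it ran from 7.90 to 8.45 against 7.96 to 8.05 in control 2, and the highest value was again that of the outlying array, with the next at 8.03. The difference was 0.04 ± 0.08 (limma, adjusted p = 0.77), and -0.04 ± 0.03 without that array. SPIB differed by -0.0070 ± 0.04 in p50/RelA KD and by -0.03 ± 0.06 in p52/RelB KD (limma, adjusted p = 0.982 and 0.837), where its highest value, 7.59, also came from the outlying array. Control means of SPIB, SPI1 and POU2F2 were 7.377, 7.393 and 7.463 in control 1, where array medians ran from 6.942 to 6.993. In control 2 they were 7.408, 7.999 and 7.779, beside array medians of 7.398 to 7.412. Whether these factors were expressed was not tested, so a difference that was not called does not show an unchanged transcript.

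**Figure D3:**
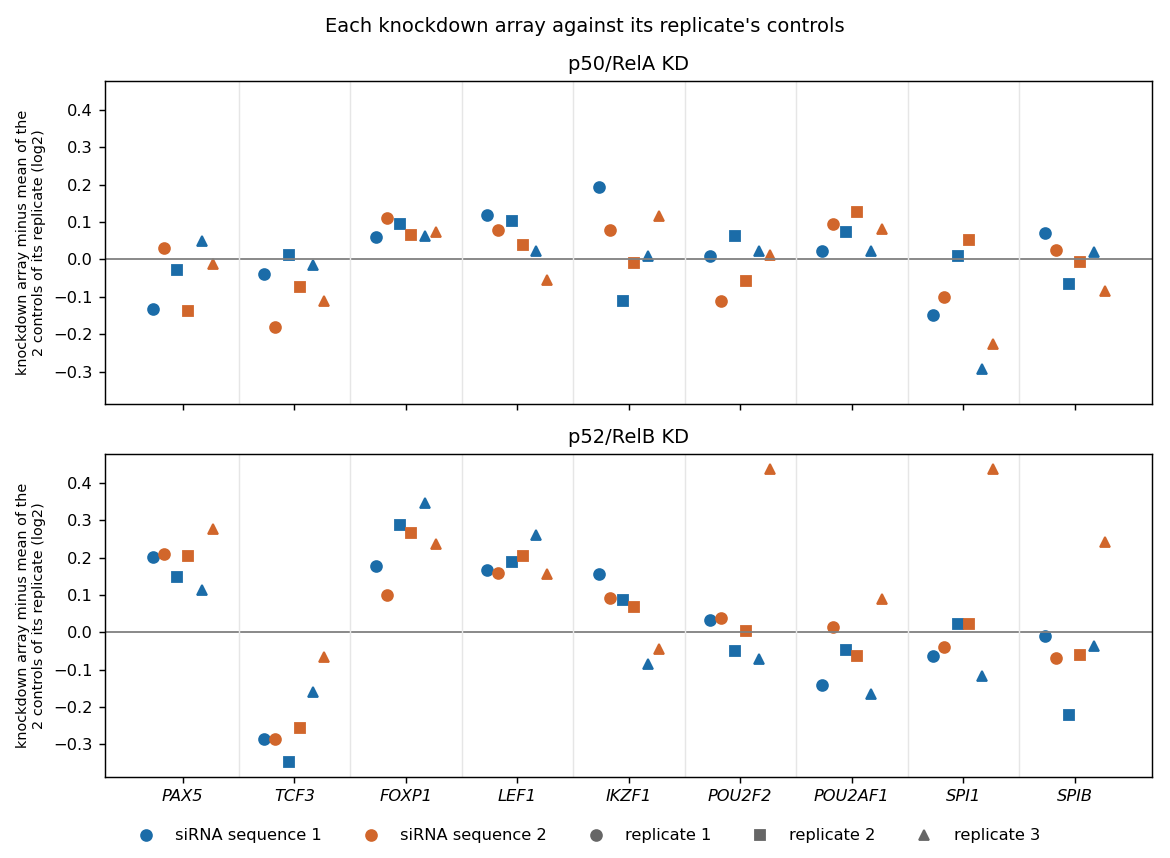
Each knockdown array minus the mean of the 2 controls of its replicate (log2), for p50/RelA KD (top) and p52/RelB KD (bottom), with siRNA sequence as colour and replicate as symbol. In p52/RelB KD all 6 points of PAX5, FOXP1 and LEF1 lie above 0 and all 6 of TCF3 lie below 0, and sequence 2 of replicate 3 gives the highest points of POU2F2, SPI1 and SPIB.

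The factors were read by siRNA sequence as well, each knockdown sequence against all 6 controls of its experiment. For p52/RelB KD, sequence 1 called 5.36% of all clusters and sequence 2 called 6.53%. FOXP1 rose with each sequence, by 0.27 and 0.20 (limma, adjusted p = 0.0115 and 0.0391). LEF1 did so too, by 0.21 and 0.17 (limma, adjusted p = 0.026 and 0.0473). PAX5 differed by 0.15 with sequence 1, which did not pass, and rose by 0.23 with sequence 2 (limma, adjusted p = 0.0909 and 0.0167). TCF3 fell by 0.26 with sequence 1 and differed by -0.20 with sequence 2, which narrowly missed (limma, adjusted p = 0.0213 and 0.0544). Sequence 1 and sequence 2 of the knockdown were not called apart for any of the 9 factors or for any cluster at all (0%), and the largest gap among the factors was -0.19 ± 0.10, for SPI1 (limma, adjusted p = 0.506). The 2 control sequences likewise gave 0 calls. Neither sequence of p50/RelA KD gave a call among the factors, beside 0.327% and 0.191% of all clusters.

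Arrays of knockdown and control did not overlap for 3 of the 9 factors in p52/RelB KD, beside 5.27% of all clusters, and for 0 of 9 in p50/RelA KD, beside 1.11%. All 6 knockdown arrays lay on the same side of both controls of their replicate for 4 factors in p52/RelB KD, beside 13.5% of all clusters, and for FOXP1 alone in p50/RelA KD. Across the experiments, 4.35% of 14647 clusters had effects that differed by the test, and PAX5 was 1 of the 9 factors to do so. The unadjusted 95% intervals of that difference did not include 0 for FOXP1 (0.06 to 0.25), LEF1 (0.03 to 0.25), TCF3 (-0.28 to -0.05) and POU2AF1 (-0.24 to -0.0014), and these factors did not pass after adjustment. PAX5 lost the call without replicate 1 and without replicate 2 (limma, adjusted p = 0.205 and 0.15) and in a fit with no replicate block (adjusted p = 0.101).

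Other lymphoid transcription factors moved in each direction in p52/RelB KD, where 3 rose, 1 fell and 13 were not called of 17 tested. Over all clusters 3.93% rose and 5.75% fell. The median difference was -0.02 beside 0.02 over all clusters. PRDM1 (Blimp-1), which drives plasma cell differentiation and represses PAX5, fell by 0.40 ± 0.05 to 75.9% of control (limma, adjusted p = 0.000189). RUNX1, a partner of the early lymphoid factors, rose by 0.33 ± 0.06 (adjusted p = 0.00505), and ETS1, a partner of PAX5 on DNA, rose by 0.27 ± 0.03 to 121% of control (limma, adjusted p = 0.00037), both with no overlap between arms. BCL6, the germinal centre repressor, rose in both experiments, by 0.32 ± 0.05 in p50/RelA KD and 0.20 ± 0.05 in p52/RelB KD (limma, adjusted p = 0.00428 and 0.0319). The study, whose target lists also required binding, named BCL6 as repressed selectively by p50/RelA. BCL6 was the 1 call among 17 tested in p50/RelA KD, where 0.245% of all clusters rose and 0.825% fell. The BCL6 call was lost in p50/RelA KD on leaving out any replicate, as it was in p52/RelB KD. RUNX1 was lost without replicate 1, and PRDM1 and ETS1 remained called on leaving out any replicate. The effects differed between the experiments for PRDM1, RUNX1 and ETS1 (limma, adjusted p = 0.00579, 0.00992 and 0.0318) and did not for BCL6 (adjusted p = 0.403). IRF4, a plasma cell and Hodgkin cell factor, differed by -0.12 in p52/RelB KD, below the 10% floor (limma, adjusted p = 0.0367).

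Genes known to be activated by these factors in B cells moved in each direction. Of 21 such genes 14 were tested in p52/RelB KD, with 2 higher, 2 lower and 10 not called, beside 3.93% of all clusters higher and 5.75% lower. The median difference was 0.0027 beside 0.02 over all clusters. FCER2 (CD23), a mature B cell IgE receptor, rose by 0.48 ± 0.04 to 140% of control (limma, adjusted p = 9.75e-06), and FCRL1 rose by 0.18 ± 0.05 (adjusted p = 0.0494). The FCRL1 mean in control 2, 7.29, was low, below the median of every control 2 array (7.398 to 7.412). CXCR5, the follicle homing receptor, fell by 0.51 ± 0.06 (limma, adjusted p = 0.000193), and CD22, a B cell receptor inhibitor, fell by 0.30 ± 0.07 (adjusted p = 0.0228). The B cell receptor genes CD79A and CD79B differed by 0.07 and -0.00097 and were not called (limma, adjusted p = 0.317 and 0.994). Of 13 tested in p50/RelA KD 1 was called, CXCR5, which fell by 0.38 ± 0.04 (limma, adjusted p = 0.000802). Over all clusters 0.245% rose and 0.825% fell there. The FCER2 effects differed between the experiments (0.58 ± 0.05, limma, adjusted p = 1.23e-07), and those of CXCR5 did not pass (-0.14 ± 0.07, adjusted p = 0.39). FCER2 and CXCR5 remained called on leaving out any replicate of experiment 2, whereas CD22 was lost on leaving out each of the 3 in turn and FCRL1 on leaving out replicate 1, replicate 2 or the outlying array. Without the outlying array BLNK and CD72 were called as well.

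Of 10 genes that PAX5 represses, 6 were tested in p52/RelB KD and PRDM1 alone was called, as lower. Over all clusters 3.93% rose and 5.75% fell. This is the same PRDM1 cluster that was counted among the other lymphoid transcription factors. XBP1, a plasma cell factor, differed by -0.12 (limma, adjusted p = 0.0866), and NOTCH1 and CSF1R, genes of T and myeloid cells, by 0.0016 and 0.0043 (adjusted p = 0.983 and 0.968). Of 5 tested in p50/RelA KD 0 was called, beside 1.07% of all clusters.

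**Figure D4:**
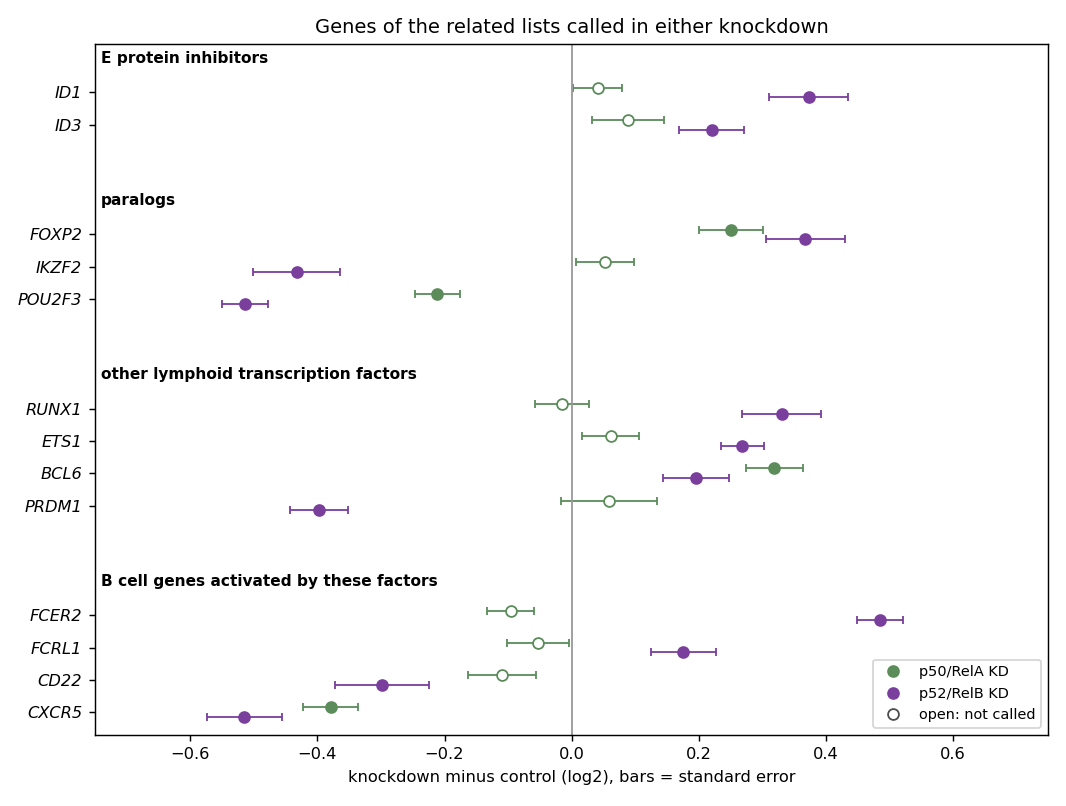
Knockdown minus control (log2, bars are standard errors, n = 6 and 6 arrays) for the genes of 4 related lists called in either experiment, filled where called. POU2F3, FOXP2, BCL6 and CXCR5 are filled in both experiments, and the other genes in p52/RelB KD alone; whether the effects differ is given by the tests in the text.

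Cell type markers were read beside these results. All 8 Hodgkin cell markers, TNFRSF8 (CD30) among them, lay above the low value limit of 6 on every array. Of 20 measured B cell genes 13 passed the filter in experiment 1 and 14 in experiment 2. MS4A1 (CD20), CR2, FCRL2, BANK1 and BTK lay below 6 on all 12 arrays of each experiment. FCER2, CD37, CD22, CD79A, CD79B, CXCR5, CIITA, BLNK, BLK, CD72, FCRL1, IGLL1 and VPREB3 lay above 6 on every array. Passing the filter does not by itself show expression, since the values carry no detection call. Of 10 T and NK cell markers, 4 also passed it in experiment 1 and 8 in experiment 2. Of the 8 Hodgkin cell markers 4 fell in each experiment, beside 0.825% of all clusters in p50/RelA KD and 5.75% in p52/RelB KD, and 3 markers were shared. The study lists CCL22 and CD40 among genes activated by both subunit pairs. The chemokine CCL22 differed by -0.75 in p50/RelA KD and -0.86 in p52/RelB KD (limma, adjusted p = 3.92e-06 and 7.18e-05), the cytokine subunit EBI3 by -0.48 and -0.21 (adjusted p = 2.13e-05 and 0.0356), and the receptor CD40 by -0.19 and -0.29 (adjusted p = 0.0275 and 0.000808). CCL17, another chemokine, fell by 0.44 in p50/RelA KD (limma, adjusted p = 0.00023) and differed by 0.12 in p52/RelB KD, where it was not called (adjusted p = 0.179). TRAF1, a signalling adaptor, fell by 0.23 in p52/RelB KD (limma, adjusted p = 0.0326) and differed by -0.16 in p50/RelA KD, where it was not called (adjusted p = 0.143). The TRAF1 mean in control 2, 7.16, was low, below the median of every control 2 array (7.398 to 7.412). The effects differed between the experiments for CCL17 and EBI3 (limma, adjusted p = 2.63e-05 and 0.0233) and did not pass that test for CCL22, CD40 and TRAF1 (adjusted p = 0.664, 0.386 and 0.703). The list means of these markers ran from 9.95 to 10.2 in control 1 and 9.73 to 9.85 in p50/RelA KD, and from 10.2 to 10.3 in control 2 and 9.93 to 10.1 in p52/RelB KD. Of 8 tested T and NK cell markers and 6 myeloid markers 0 was called in p52/RelB KD, beside 9.68% of all clusters. CD3G, KLRD1, LYZ, S100A8 and FCGR3A did not pass the filter there. The T and NK list means ran from 6.52 to 6.62 in control 2 and from 6.51 to 6.98 in p52/RelB KD, the myeloid ones from 6.41 to 6.53 and 6.44 to 6.73, and in each case the highest value was the outlying array. Of 8 tested stromal and epithelial genes PECAM1, which leukocytes also express, was called higher (0.19 ± 0.04, limma, adjusted p = 0.00498), beside 3.93% of all clusters. Their part in the differences of the B lineage factors was not tested.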

How the data were processed

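Total RNA of L1236 cells was hybridized to 24 Affymetrix Human Gene 1.0 ST arrays. The authors deposited log2 values made with RMA (background correction, quantile normalization and probe summary in oligo, version not stated). These values compress large differences and carry no detection call. The methods adjust values for covariates that they do not name, and the deposited values still differed between replicates. The table held 33297 clusters. Platform annotation gave 1 symbol for 19460, several for 1754 and none was listed for 12083. Symbols were taken from NCBI's GRCh38.p14 gene table where the gene was found there (19429 clusters, whether or not the symbol changed) and otherwise kept (31). Each experiment was fitted apart in limma 3.58.1 (R 4.3.3), over 1-symbol clusters that were not below 6 in 50% or more of the 12 arrays, with the replicate as block. The replicate numbers are those of the labels, and same-numbered arms deviated together in every replicate (correlations 0.448, 0.195 and 0.251 in experiment 1 and 0.574, 0.268 and 0.377 in experiment 2). No arrays were duplicates (highest correlation 0.998). Effects of the experiments were compared in a fit of all 24 arrays that had every replicate as its own block, at an adjusted p below 0.05. The experiments lay on different scales. Array medians ran from 6.942 to 6.993 in experiment 1 and from 7.388 to 7.505 in experiment 2. Interquartile ranges ran from 3.641 to 3.789 and from 3.163 to 3.423. The fixed limit of 6 passed 14672 and 16101 clusters. The part of these scales in the differences between effects was not tested. Scans followed the replicates in experiment 1, and in experiment 2 replicate 3 was scanned apart from replicates 1 and 2. Arms were balanced within every scan batch. The number of arrays limits precision, with a median standard error of 0.0476 in experiment 1 and 0.0536 in experiment 2. Scripts were tested on simulated data. All measured members were named, and from other lists every called gene, with an uncalled gene where a relative was called. CD79A, CD79B, XBP1, NOTCH1, CSF1R, TCF4, TCF12, TCF7L1, TCF7L2, FOXP3, FOXP4, IKZF3 and IRF4 were named as comparisons after their values were seen. Members and lists were chosen with earlier results of these data known, so no p was adjusted over a list alone. Alternatives covered the block, scan batch, filter, normalization, siRNA sequences, array weights, the methods' t-test and left-out arrays and replicates. Leave-outs for the related lists were added after seeing the data.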

Additional observations from a re-analysis of the deposited data

Results flagged for a closer look

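Values far from the rest of their arm were looked for in 36 groups of 6 arrays, in which chance gives about 1 in 20. In p52/RelB KD, SPI1 at 8.449 and POU2F2 at 8.243 in replicate 3 with sequence 2 stood above the next values of 8.026 and 7.822, and this is the array that stood apart over all clusters. In the same arm, PAX5 at 10.97 in replicate 3 with sequence 1 stood below the next value of 11.13. The controls of that replicate had the lowest PAX5 values of control 2, 10.83 and 10.89. The p52/RelB effect of PAX5 lay 0.23 above its p50/RelA effect by the test of the difference between experiments.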

How the results depend on the processing

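In p50/RelA KD 0 of 9 factors was called under all 27 alternatives. In p52/RelB KD the 4 calls remained without the replicate block, with scan batch as block, under every filter, with a further quantile normalization, with array weights and with the methods' t-test. Sequence 1 against the controls of that sequence alone called 3 (FOXP1, LEF1 and TCF3), sequence 2 in the same way called 0, and the sequences averaged within replicates called 0. Leaving out replicates or arrays gave 0 to 4, with 0 without replicate 2. The cause of these losses was not tested, and each of these fits had fewer arrays or values. Over all clusters the calls ran from 3 (sequence 2 alone) to 337 (array weights) in p50/RelA KD, against 157, and from 5 (sequence 2 alone) to 2309 in p52/RelB KD, against 1559. Without the replicate block they numbered 59 and 880, averaged within replicates 45 and 632, and with the methods' t-test 276 and 1768 on values adjusted for replicate and 30 and 725 on values as deposited. The first of these t-tests put FOXP1 in p50/RelA KD at an adjusted p of 0.0169, below the 10% floor. With no filter p50/RelA KD gave 51. Leaving out replicates or arrays gave 18 to 193 in p50/RelA KD and 443 to 2309 in p52/RelB KD, where replicate 1 or replicate 2 left out gave 443 and 470.

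The effects of the experiments differed for 1 factor, PAX5, for 0 without the replicate block, for 3 with array weights (FOXP1, PAX5 and TCF3), and for 0 to 3 when replicates or arrays were left out, with 0 without replicate 1 or 2 and 3 without the outlying array. Over all clusters these counts were 637, with 250 without the block, 1137 with array weights and 168 to 942 on leaving out replicates or arrays. The replicate block changed no other call among the factors.

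Directions turned only among differences that were not called. In p50/RelA KD the difference was 0.0022 for SPIB with a further quantile normalization and 0.0028 with sequence 2 alone, 0.028 for POU2F2 with sequence 1 alone and -0.0073 for LEF1 with sequence 2 alone. In p52/RelB KD it was -0.084 for SPI1 and -0.030 for POU2F2 with sequence 1 alone, 0.025 for POU2AF1 and 0.082 for SPIB with sequence 2 alone, and -0.019 for SPI1 and -0.0032 for POU2F2 with array weights. The difference between effects was 0.013 for IKZF1 with array weights.

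Leaving out replicates or arrays gave, in p50/RelA KD, -0.034 to 0.014 for SPIB and -0.030 to 0.0099 for POU2F2. In p52/RelB KD it gave -0.040 to 0.099 for SPI1, -0.090 to 0.032 for SPIB and -0.013 to 0.11 for POU2F2. For the difference between effects it gave -0.096 to 0.024 for SPIB, -0.0026 to 0.13 for POU2F2 and -0.070 to 0.063 for IKZF1.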
